A study of Mus musculus with 8 samples.

Results

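The genes described here are the 4 CDC-like kinases Clk1, Clk2, Clk3 and Clk4, the SR protein kinases Srpk1 and Srpk2, and the splicing regulators Tra2a and Tra2b. These 8 genes were taken by family and symbol from 55471 genes of an exonic count table and from 18513 genes of a second table with separate exonic and intronic counts. All 8 were found in both tables and all 8 passed the filter on low counts in every comparison.

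Both groups were male C57BL/6J mice of 6 to 8 weeks with the genotype CaMKIIalpha-Cre:SUN1-sfGFP. In these mice a Cre recombinase under the CaMKIIalpha promoter, active in forebrain excitatory neurons, switches on a green fluorescent tag of the nuclear envelope, and tagged nuclei of the forebrain were pulled down with antibody-coated beads (INTACT). Pilo samples (n = 4) came from mice given scopolamine methyl nitrate at 1 mg/kg and, 30 min later, pilocarpine hydrochloride at 340 mg/kg; seizures were left to develop over 100 min, and a Racine score of 3 to 5 was the condition for use. Mock samples (n = 4) came from mice given the same scopolamine and then saline. The drug, the seizures and the selection by score go together in the Pilo group and cannot be told apart. Directional libraries were prepared from the polyadenylated RNA of the nuclei. Whether every sample stands for its own mouse is not stated in the labels, and the p-values therefore refer to the variation among these samples only, which may be technical. In such bulk samples, fewer nuclei with a transcript and less of it per nucleus cannot be told apart.

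SR proteins bind exons through RNA recognition motifs and recruit the splicing machinery through domains rich in arginine and serine, whose phosphorylation sets where the proteins sit and what they bind. Srpk kinases act largely in the cytoplasm and prime SR proteins for import into the nucleus, and Clk kinases add further phosphates inside the nucleus and release SR proteins from nuclear speckles. Tra2 proteins are SR-like activators that bind GAA-rich exonic enhancers, and their own genes hold poison exons. Clk1 and Clk4 transcripts are known from mouse and human cells to stay in the nucleus with unspliced introns around exon 4, and skipping of that exon in Clk1 gives a truncated protein without kinase activity.

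The exon at the centre of this known regulation is shown for the 4 Clk genes because retained-intron transcripts of all 4 cover it together with the introns on both sides. The sequences were read from the retained-intron transcripts of GENCODE vM21 on GRCm38, 5′ to 3′ on the strand of the gene, with exon 4 in capitals and 20 bases of each flanking intron in lower case.
Clk1: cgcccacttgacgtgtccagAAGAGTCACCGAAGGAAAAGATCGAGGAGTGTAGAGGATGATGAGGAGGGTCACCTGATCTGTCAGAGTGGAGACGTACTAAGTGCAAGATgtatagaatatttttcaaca
Clk2: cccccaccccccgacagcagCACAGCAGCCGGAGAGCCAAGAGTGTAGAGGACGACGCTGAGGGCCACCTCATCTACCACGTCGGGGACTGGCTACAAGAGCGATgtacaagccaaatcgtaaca
Clk3: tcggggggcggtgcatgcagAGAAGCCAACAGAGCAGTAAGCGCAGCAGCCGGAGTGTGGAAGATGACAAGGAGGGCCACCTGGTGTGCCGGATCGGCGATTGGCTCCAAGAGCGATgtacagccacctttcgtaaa
Clk4: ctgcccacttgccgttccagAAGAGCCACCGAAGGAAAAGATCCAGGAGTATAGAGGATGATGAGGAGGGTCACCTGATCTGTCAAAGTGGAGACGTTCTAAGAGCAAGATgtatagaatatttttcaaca

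In Clk1 this exon lies at chr1:58420121-58420211 on the minus strand and has 91 bases, and in Clk4 it lies at chr11:51273078-51273168 on the plus strand and also has 91 bases. These 2 exons are identical at 85 of 91 positions, or 93.4%. Whether reads were shared between the paralogues was not tested. In Clk2 the exon has 85 bases at chr3:89169618-89169702 on the plus strand, and in Clk3 it has 97 bases at chr9:57758627-57758723 on the minus strand. All 4 exons belong to the coding sequence, and each has 1 base more than a multiple of 3, so that skipping it shifts the reading frame. Some annotated transcripts hold exon 3 and a boundary of exon 5 but no exon with the exact ends of exon 4. Of these, 2 of Clk1, 1 of Clk3 and 2 of Clk4 are listed as targets of nonsense-mediated decay. Another 1 of Clk4 is listed as protein-coding. Whether these transcripts skip the exon or hold it with other ends was not examined. In the retained-intron transcripts a single long exon takes the place of exons 3 to 5, with 1642 bases in Clk1, 1421 in Clk2 and 2757 in Clk3. In Clk4 it has 1628 bases, starts inside exon 3 and runs to the end of exon 5. The counts are sums over whole genes and do not tell exon 4 or its introns from the rest of the gene.

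**Figure D1:**
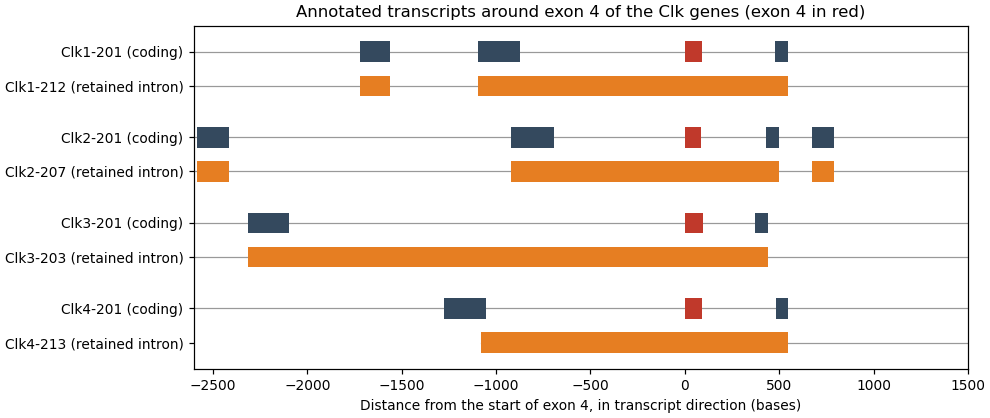
Annotated structure around exon 4 of the 4 Clk genes, as distance in bases from the start of exon 4 in the direction of transcription. For each gene the upper line is a coding transcript with its exons as dark boxes and exon 4 in red, and the lower line is a retained-intron transcript with its exons in orange, where a single box of 1421 to 2757 bases covers exon 4 and both introns beside it.

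The genes lie on 8 chromosomes, and retained-intron transcripts are annotated for all of them. Clk1 (ENSMUSG00000026034, chr1:58410189-58424066, minus strand) has 13 annotated transcripts, of which 7 are retained-intron transcripts, and these cover 43.0% of the bases of the gene, from its first to its last annotated base, that lie outside the exons of its coding transcript. Clk4 (ENSMUSG00000020385, chr11:51261730-51281766, plus strand) also has 7, covering 19.4% of those bases. Clk3 (ENSMUSG00000032316, chr9:57750624-57765860, minus strand) has 4 that cover 42.1%, and Clk2 (ENSMUSG00000068917, chr3:89164795-89176921, plus strand) has 4 that cover 30.6%. Tra2b (ENSMUSG00000022858, chr16:22244549-22266005, minus strand) stands at 29.8%, Tra2a (ENSMUSG00000029817, chr6:49243924-49264033, minus strand) at 26.4% and Srpk1 (ENSMUSG00000004865, chr17:28587648-28622709, minus strand) at 21.5%. Srpk2 (ENSMUSG00000062604, chr5:23503264-23684617, minus strand) is the longest of the 8 genes, and its retained-intron transcripts cover 3.20% of the bases outside the exons of its coding transcripts. For Clk1, part of those bases lies past the end of the coding transcript rather than between its exons. Whether reads in such stretches were counted as exonic or intronic is not given in the sources used here. Opposite-strand genes overlap Clk3 (Edc3, 1876 bases), Clk4 (BC049762, 1317 bases), Srpk2 (Kmt2e, 972 bases) and Tra2a (Gm43980, 1612 bases), and the strand setting of the counting is not given either. On the same strand, Gm25082 overlaps Clk4 (255 bases), and Gm43566 (808 bases) and Gm24009 (93 bases) overlap Srpk2.

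The exonic table held between 29356788 and 36161448 counts per library, while totals in the second table were 27135364 to 33715773 for exons and 11928054 to 16703475 for introns. As a check of the labels, exonic counts of the activity-regulated genes Fos, Arc, Egr1 and Npas4 were higher in Pilo samples, by 3.23 (SE 0.46, adjusted p 0.00228) for Fos on the log2 scale and by 2.05 to 2.09 for the other genes in edgeR's quasi-likelihood test. Excitatory neuron markers summed to 2526 to 3060 CPM (TMM-scaled counts relative to library size) in Pilo samples and 2264 to 2896 CPM in Mock samples, with 3 of 6 higher in Pilo, and none at 0. Inhibitory neuron markers summed to 153 to 241 CPM in Pilo samples and 117 to 157 CPM in Mock samples, with 2 of 6 higher in Pilo. Oligodendrocyte markers summed to 354 to 644 CPM in Pilo samples and 278 to 381 CPM in Mock samples, with 1 of 5 higher. Oligodendrocyte precursor markers summed to 12.9 to 41.7 CPM in Pilo samples and 11.8 to 28.4 CPM in Mock samples, with 1 of 3 higher, and 0 of 5 markers each of astrocytes, microglia and endothelial and mural cells were called in edgeR's test. Of all genes tested in the exonic table, 15.6% were called higher in Pilo samples and 16.2% lower. No marker of any list was at 0, and the part of these cells in the results on the 8 genes was not tested.

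In exonic reads of the exonic table, Clk1, Clk4, Tra2a and Clk2 were lower in Pilo samples than in Mock samples, and none of the 8 genes was called higher. Calls were made at an adjusted p of 0.05 in edgeR's quasi-likelihood test over 19176 genes, of which 16.2% were called lower and 15.6% higher. A fit blocked by replicate number also called Srpk2 lower (adjusted p 0.0111, against 0.0890 without the block). In the exonic columns of the second table, 14239 genes were tested, 34% were called, 17.5% lower and 16.5% higher, and the same 4 genes and Srpk2 were called lower. Groups that did not overlap, with Pilo below Mock, were found for these 5 genes in both tables, beside 16.3% of all genes tested in the exonic table and 16.8% in the second, and none of the 8 genes had all Pilo samples above Mock, beside 15.4% in the exonic table.

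Of 13318 genes tested for intronic reads, 21.9% were called lower and 19.6% higher in Pilo samples. In the fit without the replicate block, Tra2a, Clk2 and Srpk1 fell in introns and Clk3 rose, while Clk1, Clk4, Srpk2 and Tra2b did not pass the test. With the block, Clk1 introns were also called higher and Srpk2 introns lower, as given below for each gene. Intronic levels of 5 genes did not overlap between the groups, beside 37.1% of all genes tested. Pilo lay above Mock for Clk3, as for 17.2% of genes, and below for Clk2, Srpk1, Srpk2 and Tra2a, as for 19.9%. The difference between exonic and intronic change was called for 6 of the 8 genes, 3 with a negative difference (Clk1, Clk3 and Clk4) and 3 with a positive difference (Tra2a, Clk2 and Srpk1). Among 13047 genes tested for that difference, 26.2% were called, 12.8% negative and 13.5% positive.

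**Figure D2:**
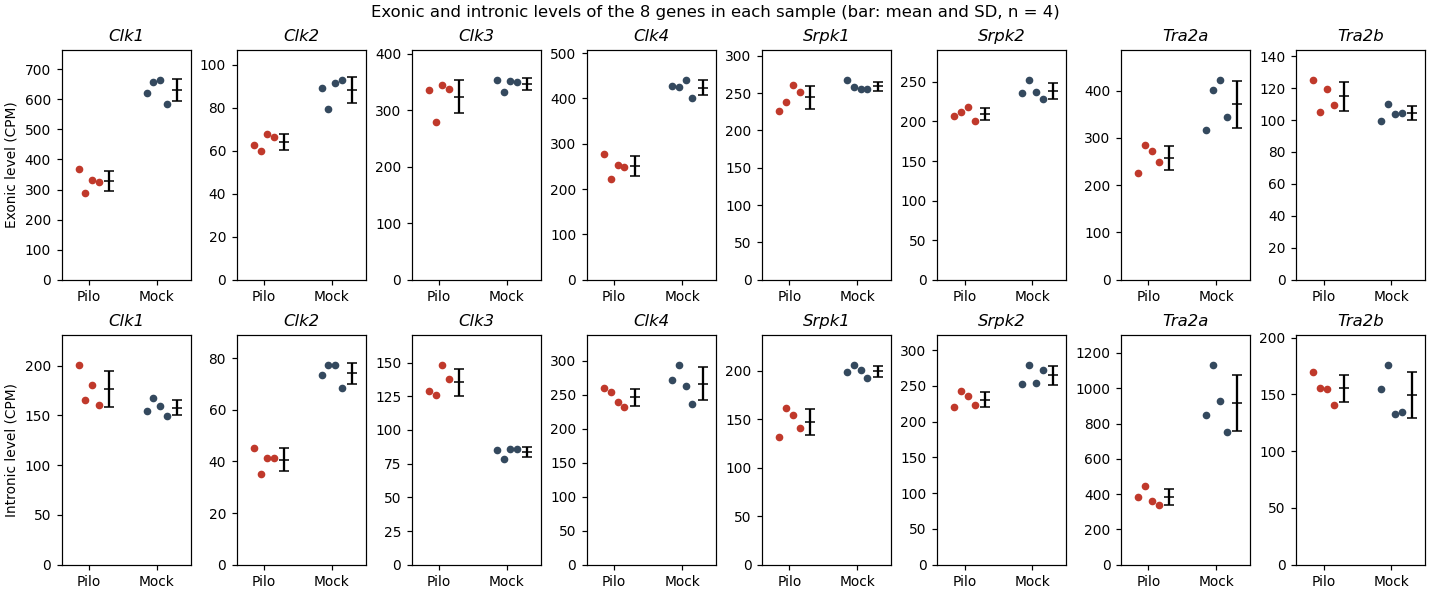
Exonic (upper panels) and intronic (lower panels) levels of the 8 genes in CPM, each region scaled on its own, with 1 point per sample in the order of the replicate numbers and the mean with its SD (n = 4) beside the points. Pilo samples stand left and Mock samples right, and exonic Clk1 (289 to 369 CPM in Pilo, 584 to 664 CPM in Mock) and intronic Tra2a (338 to 444 CPM in Pilo, 754 to 1133 CPM in Mock) show wide gaps between the groups.

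Clk1, the founding member of the Clk family, had 369, 289, 333 and 323 exonic CPM in Pilo samples 1 to 4, against 620, 656, 664 and 584 CPM in Mock samples 1 to 4. Its introns had 201, 165, 181 and 160 CPM in Pilo samples, against 155, 167, 160 and 150 CPM in Mock samples. All Pilo samples were thus far below all Mock samples in exons, while the groups overlapped in introns. The exonic level was 1.93-fold lower in Pilo samples, a log2 change of -0.95 (SE 0.08, adjusted p 1.27e-05 in edgeR's test), with -0.92 (SE 0.09, adjusted p 9.07e-06) in the exonic table. The intronic change was 0.17 (SE 0.10, 95% interval -0.03 to 0.38, adjusted p 0.157), and it passed the test once replicate number entered as a block (adjusted p 0.0376). The exonic change minus the intronic change was -1.12 (SE 0.06, adjusted p 4.45e-07), rank 84 of 13047 genes from the most negative.

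Clk4, the close paralogue of Clk1, also fell in exons. It had 277, 222, 254 and 249 exonic CPM in Pilo samples, against 426, 426, 441 and 401 CPM in Mock samples. Intronic CPM were 260, 253, 239 and 232 in Pilo samples, against 272, 294, 263 and 236 in Mock samples. Exonic levels did not overlap and were 1.69-fold lower in Pilo samples, whereas intronic levels overlapped. The exonic log2 change was -0.76 (SE 0.08, adjusted p 3.10e-05 in edgeR's test) and the intronic change -0.10 (SE 0.09, 95% interval -0.30 to 0.09, adjusted p 0.391). Their difference was -0.66 (SE 0.08, adjusted p 8.30e-05), rank 361 from the most negative.

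Clk3 differed from both in where the change lay. It had 337, 280, 344 and 337 exonic CPM in Pilo samples, against 354, 332, 352 and 350 CPM in Mock samples, and these groups overlapped. Its introns had 129, 126, 148 and 138 CPM in Pilo samples, against 84.9, 78.6, 86.2 and 85.5 CPM in Mock samples, with all Pilo samples above all Mock samples. The intronic level was 1.63-fold higher in Pilo samples, a log2 change of 0.70 (SE 0.09, adjusted p 4.07e-05 in edgeR's test). The exonic change was -0.10 (SE 0.08, 95% interval -0.27 to 0.07, adjusted p 0.359). With a difference of -0.80 (SE 0.06, adjusted p 5.03e-06), Clk3 stood at rank 226 from the most negative.

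Clk2 was the Clk gene in which introns fell more than exons. It had 62.6, 59.8, 67.7 and 66.6 exonic CPM in Pilo samples, against 89.1, 79.3, 91.6 and 93.0 CPM in Mock samples. Its intronic CPM were 45.4, 35.0, 41.4 and 41.2 in Pilo samples, against 73.3, 77.1, 77.4 and 68.6 in Mock samples. In both regions every Pilo sample was below every Mock sample. Clk2 exons fell by 0.46 on the log2 scale (SE 0.07, adjusted p 0.000473 in edgeR's test) and its introns by 0.85 (SE 0.11, adjusted p 2.25e-05). The difference was 0.40 (SE 0.09, adjusted p 0.00837). Clk2 is also the gene for which the tables differ most, since the second table held 59.3 to 62.0% of the exonic table's count in Pilo libraries and 60.5 to 62.8% in Mock libraries. Its change in the exonic table was -0.41 (SE 0.08, adjusted p 0.00184).

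**Figure D3:**
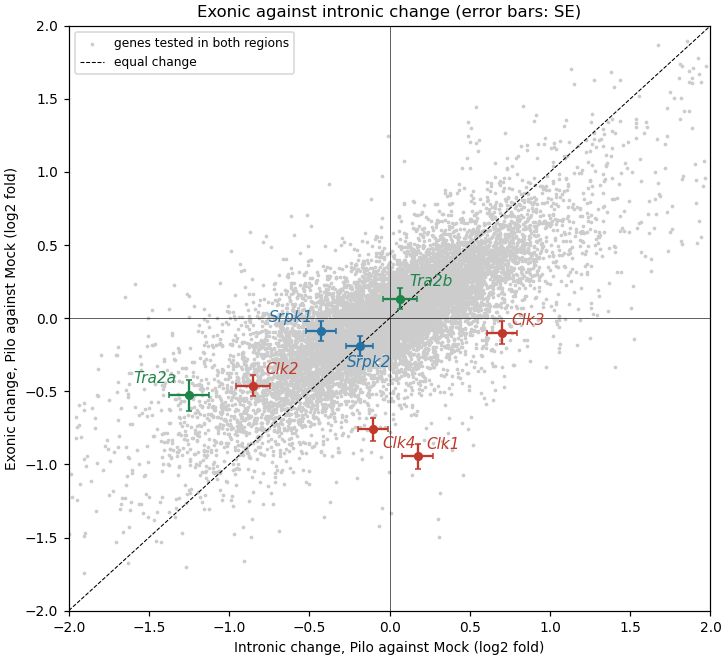
Log2 change in introns (x axis) against log2 change in exons (y axis), Pilo against Mock, for the 8 genes with SE bars and, in grey, for 12954 of the 13047 genes tested in both regions, with 93 outside the axes. Clk1, Clk4 and Clk3 lie below the dashed line of equal change, Tra2a, Clk2 and Srpk1 lie above it, and Srpk2 and Tra2b lie near it.

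Srpk1 differed from the Clk genes in falling in introns without a call in exons. It had 227, 238, 261 and 252 exonic CPM in Pilo samples, against 268, 258, 256 and 255 CPM in Mock samples, and the groups overlapped. Its introns had 131, 162, 154 and 141 CPM in Pilo samples, against 198, 206, 200 and 192 CPM in Mock samples, without overlap. Srpk1 introns fell by 0.43 on the log2 scale (SE 0.09, adjusted p 0.00193 in edgeR's test), while the exonic change was -0.09 (SE 0.07, 95% interval -0.24 to 0.06, adjusted p 0.366). The difference between them was 0.34 (SE 0.07, adjusted p 0.00275).

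Srpk2, the paralogue of Srpk1, had 207, 212, 219 and 200 exonic CPM in Pilo samples, against 236, 252, 237 and 229 CPM in Mock samples. Its introns had 221, 243, 236 and 223 CPM in Pilo samples, against 253, 280, 254 and 273 CPM in Mock samples. All Pilo samples were below all Mock samples in both regions, by a small margin. The exonic log2 change was -0.19 (SE 0.07) in the second table, with an adjusted p of 0.0467 in edgeR's test that went to 0.0532 to 0.137 when any 1 of the 8 samples was left out. The intronic change was also -0.19 (SE 0.09, adjusted p 0.0912, and 0.0103 with the replicate block). Exonic and intronic change differed by 0.00 (SE 0.06, 95% interval -0.13 to 0.13, adjusted p 0.994).

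Tra2a had the largest intronic change of the 8 genes. It had 225, 285, 271 and 248 exonic CPM in Pilo samples, against 316, 400, 422 and 343 CPM in Mock samples. Intronic CPM were 385, 444, 362 and 338 in Pilo samples, against 849, 1133, 929 and 754 in Mock samples. Neither region showed an overlap of the groups. Tra2a introns were 2.38-fold lower in Pilo samples, a log2 change of -1.25 (SE 0.13, adjusted p 3.92e-06 in edgeR's test), and its exons changed by -0.53 (SE 0.11, adjusted p 0.00256). The difference of 0.72 (SE 0.10, adjusted p 0.000277) put Tra2a at rank 362 of 13047 genes from the most positive. In the exonic table Tra2a changed by -0.64 (SE 0.10, adjusted p 0.000397), and the second table held 93.2 to 96.2% of that table's Tra2a count in Pilo libraries and 83.4 to 90.3% in Mock libraries.

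Tra2b, the paralogue of Tra2a, showed no called change. It had 125, 105, 119 and 110 exonic CPM in Pilo samples, against 99.3, 110, 104 and 104 CPM in Mock samples. Its introns had 170, 156, 155 and 141 CPM in Pilo samples, against 155, 176, 133 and 135 CPM in Mock samples. The groups overlapped in both regions. The log2 changes were 0.13 in exons (SE 0.07, 95% interval -0.02 to 0.29, adjusted p 0.177 in edgeR's test) and 0.06 in introns (SE 0.11, 95% interval -0.16 to 0.29, adjusted p 0.666). The exonic change minus the intronic change was 0.07 (SE 0.08, adjusted p 0.611).

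Exonic and intronic counts of the second table were added together for each gene. For Clk2 that table held 59.3 to 62.0% of the exonic table's count in Pilo libraries and 60.5 to 62.8% in Mock libraries. Whether the remaining reads entered its introns is not given, so the sum may leave out part of the measured RNA. In this sum Tra2a, Clk1, Clk4 and Clk2 fell, by 0.88 (SE 0.10), 0.72 (SE 0.09), 0.55 (SE 0.08) and 0.52 (SE 0.07) on the log2 scale, with adjusted p of 4.91e-05 to 0.000160 in edgeR's test. Of 14816 genes tested on this sum, 18.2% were called lower and 19.1% higher. Clk3 changed by 0.07 (SE 0.08, adjusted p 0.484), Tra2b by 0.11 (SE 0.08, adjusted p 0.288) and Srpk1 by -0.12 (SE 0.07, adjusted p 0.184). Srpk2 changed by -0.17 (SE 0.07, adjusted p 0.0671), and passed the test with the replicate block (adjusted p 0.00832) and with DESeq2 (adjusted p 0.0155).

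The intronic share of a gene is the percentage of its exonic and intronic counts in the second table that is intronic. It rests on that table's exonic counts, which fell short of those of the exonic table most of all for Clk2. Clk1 had intronic shares of 18.9, 18.4, 19.4 and 17.4% in Pilo samples, against 11.2, 11.1, 10.3 and 11.8% in Mock samples. Clk3 had 14.0, 15.1, 16.1 and 14.9% in Pilo samples, against 10.8, 10.4, 10.5 and 11.3% in Mock samples. Clk4 had 28.6, 31.1, 29.4 and 28.4% in Pilo samples, against 24.3, 25.3, 22.2 and 23.5% in Mock samples. In these 3 kinase genes every Pilo sample had a higher share than every Mock sample, which held for 2.69% of the 13047 genes.

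The other 5 genes had lower intronic shares in Pilo samples, again without overlap, which held for 39% of the 13047 genes. Tra2a had 42.3, 38.2, 37.2 and 36.7% in Pilo samples, against 57.5, 58.1, 51.2 and 53.4% in Mock samples. Within the second table, more of its counts lay in introns than in exons in every Mock library and in no Pilo library. That table held 83.4 to 90.3% of the exonic table's Tra2a count in Mock libraries and 93.2 to 96.2% in Pilo libraries. In Mock library 3 the 12806 intronic counts of Tra2a exceeded the 12200 exonic counts, but not the 13508 of the matching exonic table library. What this loss does to the change in share was not tested. Clk2 averaged 21.2 ± 1.99% in Pilo samples and 29.5 ± 1.96% in Mock samples (SD, n = 4 each), and Srpk1 averaged 20.3 ± 0.87% in Pilo samples and 27.7 ± 0.56% in Mock samples. Srpk2 (31.8 ± 0.61% in Pilo samples, 35.6 ± 1.91% in Mock samples) and Tra2b (36.4 ± 0.75% in Pilo samples, 41.5 ± 2.98% in Mock samples) moved by -3.84 and -5.14 points, near the median gene.

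Shares were lower across the whole library, which bears on how the shares of single genes are read. Over all genes, 30.0 ± 0.63% of counts were intronic in Pilo libraries and 33.0 ± 0.80% in Mock libraries (SD, n = 4 each; exact two-sided permutation test, p = 0.0286, the smallest p that 4 against 4 samples can give). Same-numbered libraries were lower in Pilo in 4 of 4 pairs, and an exact paired permutation test gave p = 0.125, the smallest that 4 pairs allow. The median gene had a share of 31.8% in Pilo samples and 35.9% in Mock samples, and the median change was -3.44 points. The change of 7.47 points in Clk1 lay at percentile 98.6 of all genes, that of 5.58 points in Clk4 at percentile 97.7 and that of 4.28 points in Clk3 at percentile 96.3. Tra2a, with -16.5 points, lay at percentile 0.966. The test of exonic against intronic change uses a scaling factor per region and so takes out this shift. With 1 factor per sample in its place, the median difference over all genes was 0.26 rather than 0.01 on the log2 scale. Srpk2 (0.25, adjusted p 0.0126 in edgeR's test) and Tra2b (0.31, adjusted p 0.0102) then also passed with a positive difference close to that median. The directions and calls of Clk1, Clk2, Clk3, Clk4, Srpk1 and Tra2a were the same under both scalings.

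**Figure D4:**
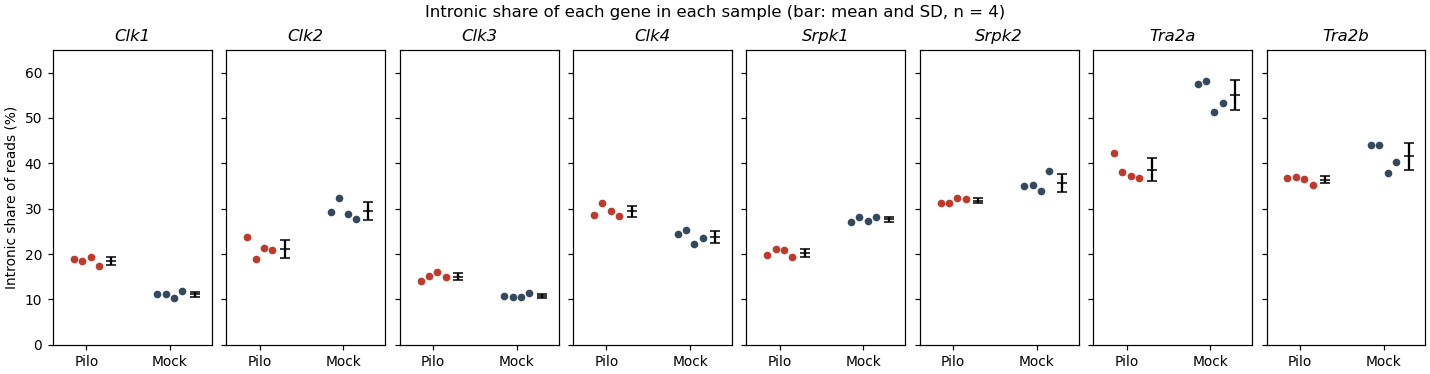
Intronic share of each gene, as percent of its exonic and intronic counts, with 1 point per sample and the mean with its SD (n = 4) beside the points, Pilo left and Mock right. Clk1, Clk3 and Clk4 lie higher in Pilo samples, and the other 5 genes lie lower, with the largest gap in Tra2a (36.7 to 42.3% in Pilo, 51.2 to 58.1% in Mock).

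The 6 genes with a called difference fell into 4 patterns of exonic and intronic calls in the fit without the replicate block. The shares of genes given here were counted in that fit only. Exons that fell, introns without a call and a negative difference were the pattern of Clk1 and Clk4, which 238 of 13047 genes showed (1.82%). With the replicate block Clk1 introns were called higher, so that Clk1 then left this pattern. Exons without a call, introns that rose and a negative difference were the pattern of Clk3, shown by 570 genes (4.37%). Exons and introns that both fell, with a positive difference, were the pattern of Clk2 and Tra2a, shown by 453 genes (3.47%). Srpk1, with no exonic call, introns that fell and a positive difference, shared its pattern with 735 genes (5.63%).

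Levels can be compared between the genes per kilobase of annotated exon, here the union of all exons of a gene, retained-intron transcripts included. In Pilo samples of the exonic table the order of mean levels was Clk4, Clk1, Tra2a, Clk3, Srpk1, Clk2, Srpk2 and Tra2b, with 39.2 ± 3.29, 37.8 ± 3.36, 36.5 ± 3.76, 35.9 ± 2.92, 19.1 ± 1.11, 18.8 ± 1.20, 14.2 ± 0.46 and 12.8 ± 0.88 CPM per kilobase (SD, n = 4). In Mock samples it was Clk1, Clk4, Tra2a, Clk3, Clk2, Srpk1, Srpk2 and Tra2b, with 71.7 ± 4.88, 65.5 ± 2.94, 57.1 ± 7.47, 37.9 ± 0.72, 25.0 ± 1.83, 20.5 ± 0.53, 15.9 ± 0.86 and 11.7 ± 0.48 CPM per kilobase. In Mock samples Clk1 overlapped with Clk4, and Clk4 with Tra2a, while every later neighbour in the order was separate. In Pilo samples the first 4 genes all overlapped with their neighbours, as did Srpk1 with Clk2 and Srpk2 with Tra2b. On this length Clk1, Clk4 and Tra2a were thus above Clk3 in all Mock samples and overlapped with it in Pilo samples. The union has 8132 bases in Clk1, 6945 in Tra2a, 5797 in Clk4 and 8450 in Clk3. Exons of coding transcripts alone have 1796, 1803, 2191 and 3517 bases in the same genes. The order and the overlaps therefore hold for the union length only and were not examined for the coding length.

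Across the 8 libraries of the exonic table, the log2 CPM of Clk1 were most alike to those of Clk4, with a Pearson r of 0.998 among 12857 genes with a mean count of at least 50. Srsf6, an SR protein gene, followed with r = 0.995, and then Jmjd6, whose product hydroxylates lysines of splicing factors, and Dnajc19, both with r = 0.994, and Skp2 with r = 0.993. For Tra2b the most alike genes were Tmem87a (r = 0.967), Onecut2 (0.945), Yars (0.942), Xylt1 (0.940) and Fmnl2 (0.938). The libraries form 2 groups and the points share depth and library, so these r describe likeness over the groups and within them together.

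The substrates of these kinases, the SR protein genes, moved in both directions. Of 11 SR protein genes tested in the exonic table, 2 rose and 4 fell in edgeR's test, with a median log2 change of -0.11 beside 0.00 over all genes, of which 15.6% were called higher and 16.2% lower. Srsf6 averaged 302 ± 26.0 CPM in Pilo samples and 515 ± 12.9 CPM in Mock samples (SD, n = 4 each), a log2 change of -0.77 (SE 0.08, adjusted p 1.93e-05). Srsf5 averaged 828 ± 36.8 CPM in Pilo samples and 1340 ± 49.5 CPM in Mock samples, a change of -0.69 (SE 0.08, adjusted p 3.00e-05). Srsf9 fell by 0.46 (SE 0.08, adjusted p 0.000667), and Srsf10, whose product represses splicing when it is dephosphorylated, rose by 0.41 (SE 0.11, adjusted p 0.0119). In introns 3 of the 11 rose and 4 fell, and the median was 0.01, beside 19.6% of all genes called higher and 21.9% lower. The exonic change minus the intronic change was called negative for 4 and positive for 2, beside 12.8 and 13.5% of all genes. The most negative was Srsf7, with -1.39 (SE 0.06, adjusted p 7.79e-08), an intronic rise of 1.25 (adjusted p 1.64e-06) and no exonic call (-0.14, adjusted p 0.265, in the second table), which is the pattern of Clk3. Srsf5 (-0.97, SE 0.06, adjusted p 1.77e-06) and Srsf6 (-0.45, SE 0.08, adjusted p 0.000976) were also called negative. The 2 with a positive difference in edgeR's test were Srsf3 (0.62, SE 0.08, adjusted p 0.000159) and Srsf12 (0.33, SE 0.10, adjusted p 0.0225). Srsf3 had an intronic change of -0.77 (adjusted p 0.000281).

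Other kinases reported to phosphorylate SR proteins mostly rose in exons. Of 7 tested in the exonic table, 4 rose and 1 fell, with a median log2 change of 0.45, beside 15.6% of all genes called higher and 16.2% lower. Top1, the DNA topoisomerase that also has SR kinase activity, averaged 116 ± 4.00 CPM in Pilo samples and 84.2 ± 5.49 CPM in Mock samples (SD, n = 4 each), a rise of 0.46 (SE 0.07, adjusted p 0.000255 in edgeR's test). Gsk3b (0.48, adjusted p 0.000599), Dyrk1a (0.45, adjusted p 0.00201) and Cdk11b (0.53, adjusted p 0.00228) also rose. In introns 2 of the 7 rose and 0 fell in edgeR's test, with a median of 0.09. Over all genes 19.6% were called higher and 21.9% lower, so the number that rose is near the background. The difference between regions was called positive for 2, Dyrk1a (0.50, adjusted p 0.0222) and Gsk3b (0.35, adjusted p 0.0423), and negative for 0, beside 13.5 and 12.8% of all genes.

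Of 6 genes for import and dephosphorylation of SR proteins, 5 rose and 0 fell in exons in edgeR's test, with a median log2 change of 0.42. Over all genes 15.6% were called higher and 16.2% lower. In introns 5 rose and 0 fell, with a median of 0.57, beside 19.6% of all genes called higher and 21.9% lower. The remaining gene, Ppp1r8, changed by -0.11 in exons (adjusted p 0.328) and by -0.18 in introns (adjusted p 0.202). Ppp2ca, a catalytic subunit of protein phosphatase 2A, averaged 116 ± 6.15 CPM in Pilo samples and 78.5 ± 9.97 CPM in Mock samples (SD, n = 4 each), a rise of 0.56 (SE 0.09, adjusted p 0.000368 in edgeR's test). Ppp1ca (0.41, adjusted p 0.000829) and Ppp1cc (0.45, adjusted p 0.00117), catalytic subunits of protein phosphatase 1, rose as well. Tnpo3, the importin that carries phosphorylated SR proteins into the nucleus, rose by 0.36 (SE 0.07, adjusted p 0.00151). The difference between regions was called negative for 3 of the 6 and positive for 0, beside 12.8 and 13.5% of all genes.

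Of 25 genes of SR-related proteins, which share domains rich in arginine and serine, 4 rose and 0 fell in exons of the exonic table in edgeR's test, with a median log2 change of 0.03. Over all genes 15.6% were called higher and 16.2% lower, so the number that rose is near the background. The 4 were Scaf8 (0.85, SE 0.07, adjusted p 5.33e-06), Thrap3 (0.38, SE 0.07, adjusted p 0.00150), Scaf11 (0.30, SE 0.07, adjusted p 0.00489) and Srrm4 (0.58, SE 0.16, adjusted p 0.0209). Srrm4 is the neuronal activator of microexons. In introns 7 of the 25 rose and 1 fell, with a median of 0.08, beside 19.6% of all genes called higher and 21.9% lower. The difference between regions was called negative for 6 and positive for 0, with a median of -0.08, beside 12.8 and 13.5% of all genes.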

How the data were processed

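Raw read counts per gene were deposited by the authors as 2 tables, exonic counts per Ensembl gene and separate exonic and intronic counts per Entrez gene. The submitters' processing notes list edgeR, R 4.1.1, HTSeq 0.11.2, STAR 2.7.1a, Trimmomatic 0.39 and the build mm10 without saying what each did. How introns were separated, the annotation and the strand setting are not given in the sources read.

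Counts were fitted over all genes with edgeR 4.0.16 in R 4.3.3 (TMM, filterByExpr minimum count 10, robust quasi-likelihood F-test on treatment, Benjamini-Hochberg at 0.05). The SE is the size of the unshrunken coefficient divided by the root of F. Exonic and intronic change were compared as an interaction of region and treatment, with sample as a covariate and a factor per region. Alternatives were RLE scaling, no filter, a minimum count of 50, DESeq2 1.42.0, limma 3.58.1 (voom), a replicate block and leaving out each sample. Recovery of planted changes was checked on simulated counts, drawn independently for each sample and region and without pairing by replicate number. That check set no limit on false calls. Counting noise did not account for the differences between replicates (chi-square over its degrees of freedom, 9.09 to 40.4), and the 8 libraries entered as separate samples.

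The rule for named genes took the 8 members, up to 4 genes of smallest p per list of related genes, and the 5 genes most alike to Clk1 and to Tra2b. Further list members named as counted were chosen after their values were seen. The members and lists were chosen with earlier results of these data known. Symbols for the exonic table and all coordinates came from GENCODE vM21. Entrez identifiers of the second table were matched to symbols through RefSeq genes.

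In both groups, columns numbered 2 and 3 in 1 table matched 3 and 2 in the other (r of deviations over genes 0.996 to 0.998 with the other number, 0.360 to 0.488 with the same number), so replicate numbers are those of each table. Within a table, same-numbered Pilo and Mock libraries deviated together (r 0.365, 0.363, 0.391 and 0.366 in the exonic table; 0.433, 0.486, 0.443 and 0.449 for exons and 0.389, 0.313, 0.400 and 0.458 for introns of the second table), which was taken as pairing by replicate number.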

Additional observations from a re-analysis of the deposited data

Results flagged for a closer look

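In 2 of 64 groups of 4 values examined, a single sample stood apart from the other 3 by more than the 95% limit of Dixon's ratio, where chance gives about 1 in 20 groups. Both concern exonic Clk3 in the Pilo group. In the exonic table Pilo replicate 3 had 267 CPM, with the other Pilo samples at 313 to 318 CPM (ratio 0.898). In the second table Pilo replicate 2 had 280 CPM, with the others at 337 to 344 CPM (ratio 0.885). Since numbers 2 and 3 are exchanged between the tables, these are values of 1 library. Without it the exonic log2 change of Clk3 was 0.00 (adjusted p 0.993 in edgeR's test) in the exonic table and -0.04 (adjusted p 0.699) in the second.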

How the results depend on the processing

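Counts of genes over the whole tables moved by over 1.5 times in these cases. With the replicate block, genes that rose numbered 4572 in the exonic table (2994 without the block), 3572 in exons of the second table (2345), 4281 in gene bodies (2823) and 2680 in the difference between regions (1756). With 1 scaling factor per sample, 5822 genes had a positive and 406 a negative difference, against 1756 and 1664. Leaving out 1 sample gave 2487 to 3113 genes that rose and 2356 to 3166 that fell in the exonic table, 1922 to 2325 and 1875 to 2585 in exons of the second table, 2178 to 2638 and 2338 to 2955 in introns, 2369 to 2863 and 2132 to 2839 in gene bodies, and 1249 to 1744 and 1251 to 1670 for the difference. The difference in the intronic share over all genes, -2.98 points, had p = 0.125 in the exact paired permutation test over replicate numbers (replicate block), and it was -3.36 to -2.71 points without each sample in turn, where the exact p of 0.0571 is the smallest that 4 against 3 samples allow. These tests of that share were chosen after seeing the data.

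Of the members' 640 values under alternatives, 614 kept direction and call or moved by less than the replicate spread. The 18 whose call changed concern Srpk2, Clk1 introns with the block and Tra2b with 1 scaling factor, and 8 shares moved when odds were taken relative to the library, with unchanged sign. Exonic Srpk2 in the second table lost its call with RLE scaling (adjusted p 0.0639 in edgeR's test), with no filter (0.0753) and without each sample in turn, and in the exonic table it passed at a minimum count of 50 (adjusted p 0.0389). Other than the calls on Srpk2 and Clk1 introns, the block changed no call of a member. The cause of these shifts was not tested. Exon 4, its introns and single transcripts cannot be read from counts per gene.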
